A study of Mus musculus with 6 samples.

Results

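The interleukin-1 (IL-1) family was followed through 10 genes, 5 for ligands and their natural antagonist (Il1a, Il1b, Il18, Il33 and Il1rn) and 5 for receptors (Il1r1, Il1r2, Il1rap, Il1rl1 and Il18r1). The genes were taken by name, with earlier results of these data known, so shares over all genes are given beside them as description. A gene counted as measured where a probe set was annotated to it alone. That held for 9 of the 10 genes, among 22180 genes tested in all. Il1rl1, the gene of the IL-33 receptor ST2, had no such probe set and was not analysed here.

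The 6 samples were prostate epithelial cancer cells of Rb1F/F:Trp53F/F:PB-Cre4 mice, in which a Cre recombinase driven by a probasin promoter deletes Rb1 and Trp53 in prostate epithelium. In 3 samples the cells had been infected with a lentivirus for the serine/threonine kinase PIM1 (PIM1 cells), and in 3 with the empty vector (EV cells). The floxed alleles, the Cre transgene and the culture medium, with charcoal-stripped serum, insulin, epidermal growth factor and cholera toxin, were common to all 6. Total RNA was measured on whole-transcript mouse arrays, and each value below is a log2 signal as deposited. A difference is PIM1 minus EV on that scale, so that 1 unit is a 2-fold change. The labels do not say whether the samples of a group were separate cultures, infections or mice, so the spread behind each p-value may be only technical. Signals of different genes come from different probes, so their levels are not ranked against each other. Where signals of several genes are summed or subtracted below, the result is read only between the groups. A summed signal is weighted towards genes with bright probes.

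IL-1 family cytokines act through paired receptor chains. IL-1 alpha and IL-1 beta both bind IL-1R1, which then recruits the accessory protein IL-1RAP, and IL-33 uses the same accessory protein together with ST2. IL-1Ra, the product of Il1rn, occupies IL-1R1 without signalling, and IL-1R2 is a decoy that binds IL-1 but has no signalling domain. The engaged receptors pass the signal through MYD88 and IRAK kinases to NF-kappaB. IL-1 beta and IL-18 are made as precursors that inflammatory caspases cut, whereas IL-1 alpha and IL-33 can act as alarmins when cells are damaged.

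In PIM1 cells 5 of the 9 measured genes were higher than in EV cells at an adjusted p under 0.05 and 0 were lower, where the background over all 22180 genes was 16.1% higher and 10.9% lower (limma, Benjamini-Hochberg adjustment over all genes). The 5 genes were Il33, Il1a and Il1rn on the ligand side, and Il1r1 and Il1rap on the receptor side. Il1b, Il18, Il1r2 and Il18r1 did not pass. The median difference of the 9 genes was 1.00, against -0.05 over all genes tested. For the same 5 genes every PIM1 array lay above every EV array, as it did for 22.3% of all genes, and for 0 of the 9 did every PIM1 array lie below, as it did for 20.9% of all genes.

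**Figure D1:**
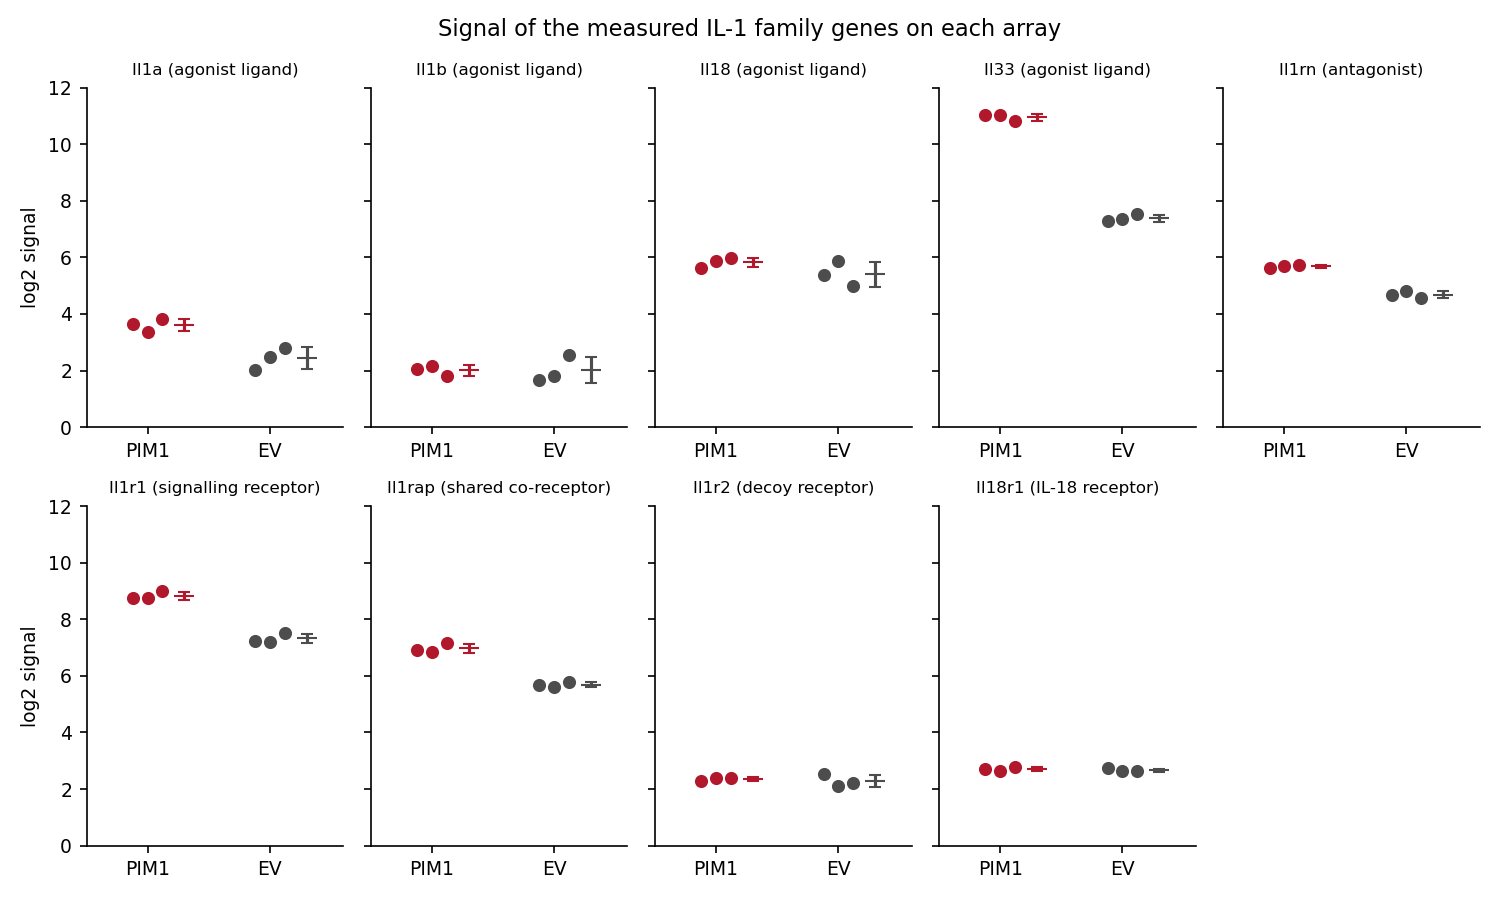
Log2 signal of the 9 measured IL-1 family genes on each array, with PIM1 arrays in red and EV arrays in grey, and beside each group its mean with the SD of 3 arrays. The points of Il33, Il1a, Il1rn, Il1r1 and Il1rap do not overlap between the groups, with the widest gap for Il33, whereas those of Il1b, Il18, Il1r2 and Il18r1 do.

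Array medians were 3.40 ± 0.016 for PIM1 and 3.50 ± 0.014 for EV (SD, n = 3 each). Arrays of the PIM1 group correlated at 0.994 to 0.996 over genes, those of the EV group at 0.990 to 0.991, and pairs across the groups at 0.963 to 0.967. Pim1 itself read 7.11, 6.89 and 6.97 in PIM1 cells and 5.26, 6.25 and 5.23 in EV cells (difference 1.41, adjusted p = 0.00455). In a second, dimmer Pim1 probe set the difference of 0.68 did not pass among all probe sets (adjusted p = 0.0933). The labels do not name the species of the introduced sequence. Of all genes 3575 were called higher and 2420 lower in PIM1 cells, and 4324 higher and 1558 lower once each array was centred on its median. No detection call was used, so signals near or below the array medians hold an unknown share of background.

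Il33 encodes IL-33, a nuclear cytokine of barrier epithelium and stromal cells that alerts innate lymphoid cells and mast cells. RefSeq gives it more than 1 transcription start, and because its change is the largest among the measured family genes, both start windows in the table (250 bases before to 50 after the start, build GRCm38.p6) are shown first. A set of 3 short motifs was looked for on both strands of each window, and matches are in capitals: the kappaB site of NF-kappaB, the C/EBP site TTGCNNAA and the AP-1 site TGANTCA. The upstream Il33 window (chr19:29924863-29925162, plus strand) held none of them, and the downstream window (chr19:29945540-29945839, plus strand) held a C/EBP match at position -85 from the start.
Il33, upstream start: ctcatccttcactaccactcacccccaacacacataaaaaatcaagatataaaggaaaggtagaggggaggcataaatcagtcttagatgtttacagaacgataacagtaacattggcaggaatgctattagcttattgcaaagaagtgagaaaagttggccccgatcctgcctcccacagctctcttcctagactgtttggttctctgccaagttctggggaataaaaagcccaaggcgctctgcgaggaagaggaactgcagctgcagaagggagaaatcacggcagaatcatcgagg
Il33, downstream start: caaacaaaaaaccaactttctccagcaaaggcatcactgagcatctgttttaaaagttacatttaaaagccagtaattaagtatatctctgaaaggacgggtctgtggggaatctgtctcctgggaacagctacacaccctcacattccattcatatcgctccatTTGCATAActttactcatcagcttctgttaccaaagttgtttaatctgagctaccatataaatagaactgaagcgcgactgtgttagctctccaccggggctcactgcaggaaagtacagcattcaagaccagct

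Il33 read 11.01, 11.02 and 10.82 in PIM1 cells and 7.28, 7.35 and 7.52 in EV cells. The PIM1 arrays were close together and far above all EV arrays. The difference was 3.57 (95% interval 3.31 to 3.83, adjusted p = 5.31e-07), an 11.9-fold rise and the 59th largest of the 22180 genes. It stayed between 3.52 and 3.67 under 14 alternative treatments of the data. RNA was taken from whole cultures, so more cells with Il33 RNA and more Il33 RNA per cell cannot be told apart. The array value does not tell which start was used.

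Il1a, the gene of IL-1 alpha, and Il1b, the gene of IL-1 beta, lie next to each other on the same strand of chromosome 2, and their start windows are shown together because one gene passed the test and the other did not. The Il1a window (chr2:129309923-129310222, minus strand) held an AP-1 match at position -12, and the Il1b window (chr2:129371090-129371389, minus strand) held no match.
Il1a: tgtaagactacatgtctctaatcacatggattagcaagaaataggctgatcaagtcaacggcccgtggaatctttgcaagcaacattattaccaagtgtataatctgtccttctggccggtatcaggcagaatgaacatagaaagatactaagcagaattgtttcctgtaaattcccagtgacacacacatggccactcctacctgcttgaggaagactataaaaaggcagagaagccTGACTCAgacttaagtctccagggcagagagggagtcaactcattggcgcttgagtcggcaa
Il1b: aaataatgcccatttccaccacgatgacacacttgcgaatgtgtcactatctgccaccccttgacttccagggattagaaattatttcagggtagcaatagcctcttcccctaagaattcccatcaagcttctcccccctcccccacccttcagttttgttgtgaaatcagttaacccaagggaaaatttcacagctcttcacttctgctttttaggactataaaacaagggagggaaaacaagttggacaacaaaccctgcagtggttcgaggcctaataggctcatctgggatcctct

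Il1a read 3.64, 3.38 and 3.81 in PIM1 cells and 2.02, 2.49 and 2.81 in EV cells. All PIM1 values were above all EV values, and the EV values lay below the EV array median. The PIM1 values lay near the PIM1 array median, and that of PIM1 replicate 2 was below the median of its array (3.41). The difference was 1.17 (95% interval 0.70 to 1.64, adjusted p = 0.00380), 2.25-fold on the deposited scale. Without a detection call, the signals of neither group are shown to be above background. Neither this fold nor the rank of Il1a given below is therefore an exact measure of its RNA. Leaving out each array in turn gave differences of 0.96 to 1.35, all of which passed. Il1b read 2.06, 2.16 and 1.80 in PIM1 cells and 1.67, 1.82 and 2.55 in EV cells. These values overlapped, all below the array medians, and the Il1b difference was -0.01 (95% interval -0.52 to 0.51, adjusted p = 0.985). At so low a signal a change of Il1b within that interval was not detectable.

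Il18 encodes IL-18, which drives interferon gamma production by lymphocytes. It read 5.635, 5.86 and 5.97 in PIM1 cells and 5.36, 5.86 and 4.99 in EV cells. The second EV array reached the level of the PIM1 arrays and the other 2 lay below them. The difference of 0.42 (95% interval -0.06 to 0.90, adjusted p = 0.183) did not pass. Without EV replicate 2 it was 0.65 and passed (adjusted p = 0.0246). Without EV replicate 3, the lowest array, it was 0.21 (adjusted p = 0.432). The other arrays left out in turn gave 0.34 to 0.51, none of which passed. The call therefore depended on single EV arrays.

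Il1rn, the gene of the IL-1 receptor antagonist, was also called higher. Of its 3 start windows the most upstream (chr2:24336610-24336909, plus strand) is shown because it alone held a match, to AP-1 at position -141. The other 2 windows held no match.
Il1rn, upstream start: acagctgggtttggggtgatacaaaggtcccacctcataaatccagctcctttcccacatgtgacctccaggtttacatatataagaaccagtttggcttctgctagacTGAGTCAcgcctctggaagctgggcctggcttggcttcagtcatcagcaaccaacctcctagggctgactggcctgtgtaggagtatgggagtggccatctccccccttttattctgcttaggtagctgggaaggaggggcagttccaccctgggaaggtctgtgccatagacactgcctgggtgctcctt

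Il1rn read 5.62, 5.70 and 5.74 in PIM1 cells and 4.66, 4.83 and 4.57 in EV cells. The groups were separated by a wide gap relative to their spread. The difference was 1.00 (95% interval 0.76 to 1.25, adjusted p = 0.000274), a 2.01-fold rise. The changes of antagonist and agonists were also set against each other within each array, as Il1rn minus the mean of Il1a and Il1b. That quantity differed by 0.42 between PIM1 and EV cells (two-sided exact permutation test, p = 0.2, also 0.2 when adjusted over the 2 such comparisons made, where 3 against 3 arrays cannot give less than 0.1). A test of this size cannot pass 0.05, and the Il1b signals in it lie below the array medians.

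On the receptor side both chains of the signalling IL-1 receptor rose, whereas the decoy did not pass. Il1r1 has 2 start windows in the table, shown because they carry different matches. The upstream window (chr1:40224830-40225129, plus strand) held a C/EBP match at position -133, and the downstream window (chr1:40266336-40266635, plus strand) held a kappaB match at position -232.
Il1r1, upstream start: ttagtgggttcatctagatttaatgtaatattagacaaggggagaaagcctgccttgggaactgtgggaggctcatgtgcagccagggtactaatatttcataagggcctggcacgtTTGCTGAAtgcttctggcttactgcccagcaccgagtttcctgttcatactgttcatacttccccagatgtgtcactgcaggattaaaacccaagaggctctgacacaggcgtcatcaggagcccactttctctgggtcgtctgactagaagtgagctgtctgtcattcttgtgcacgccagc
Il1r1, downstream start: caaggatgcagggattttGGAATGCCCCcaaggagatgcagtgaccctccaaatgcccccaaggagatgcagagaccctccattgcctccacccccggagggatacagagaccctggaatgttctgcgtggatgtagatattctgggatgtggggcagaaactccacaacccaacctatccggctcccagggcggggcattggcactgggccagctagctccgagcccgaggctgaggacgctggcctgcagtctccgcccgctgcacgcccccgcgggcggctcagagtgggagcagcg

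Il1r1 read 8.74, 8.75 and 8.98 in PIM1 cells and 7.24, 7.21 and 7.51 in EV cells. No value of either group approached the other group. The difference was 1.50 (95% interval 1.22 to 1.79, adjusted p = 7.16e-05), a 2.83-fold rise. Il1rap, the accessory chain shared by the IL-1 and IL-33 receptors, read 6.93, 6.84 and 7.14 in PIM1 cells and 5.69, 5.59 and 5.77 in EV cells. It rose by 1.29 (95% interval 1.02 to 1.55, adjusted p = 0.000111), or 2.44-fold. Il1rap has 3 probe sets, and the 2 dimmer ones disagreed with the brightest. They averaged 2.24 ± 0.093 and 1.92 ± 0.20 in PIM1 cells and 2.15 ± 0.27 and 1.80 ± 0.26 in EV cells (SD, n = 3 each), with differences of 0.10 and 0.11 (adjusted p = 0.720 and 0.705 over all probe sets). With the mean of the 3 probe sets in place of the brightest, the Il1rap difference was 0.50 (adjusted p = 0.0141). The sources used here do not place these probe sets in the transcripts.

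Il1r2 and Il18r1 were at low signals in both groups. Il1r2, the decoy receptor gene, read 2.28, 2.40 and 2.41 in PIM1 cells and 2.52, 2.10 and 2.20 in EV cells (difference 0.09, 95% interval -0.21 to 0.38, adjusted p = 0.667). Il18r1, the gene of the IL-18 binding chain, read 2.72, 2.63 and 2.77 in PIM1 cells and 2.73, 2.65 and 2.63 in EV cells (difference 0.04, 95% interval -0.18 to 0.26, adjusted p = 0.822). The groups overlapped for both genes, and all values lay below the array medians. Taken within each array, the difference of Il1r2 minus that of Il1r1 was -1.42 between PIM1 and EV cells (two-sided exact permutation test, p = 0.1, the smallest that 3 against 3 arrays can give, and 0.2 when adjusted over the 2 comparisons). With Il1r2 below the array medians in both groups, this value restates the Il1r1 difference and adds no evidence about the decoy.

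**Figure D2:**
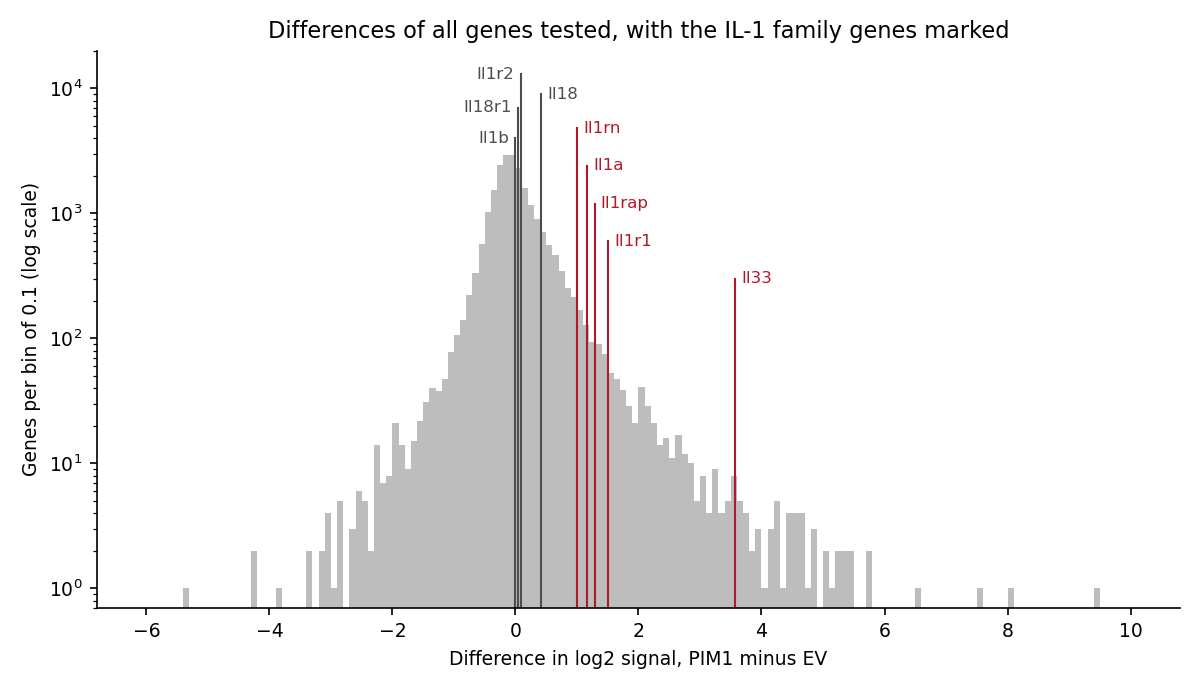
Number of genes in bins of 0.1 by their difference in log2 signal, PIM1 minus EV, for all 22180 genes tested, on a logarithmic count axis. Vertical lines of arbitrary height mark the 9 measured IL-1 family genes, red where called higher in PIM1 cells and grey where not called. Il1rn, Il1a, Il1rap and Il1r1 lie between 1.00 and 1.50, Il33 at 3.57.

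Among all genes the 5 rises ranked 59th for Il33, 456th for Il1r1, 639th for Il1rap, 761st for Il1a and 1006th for Il1rn. Called rises of at least 1 on the log2 scale made up 4.55% of all genes. The 4 other measured members lay nearer the middle of the distribution. Il18 exceeded 84.7% of all genes in its difference, Il1r2 66.1%, Il18r1 61.3% and Il1b 56.0%.

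Start windows were found for all 10 genes, 17 in number, and 6 of them held a match to any of the 3 motifs, with 0 overlapping matches. Among the windows not printed, Il1rl1 held a C/EBP match at position -34, and the second Il1rl1 window and those of Il1rap, Il18, Il1r2 and Il18r1 held none. Of all 32851 windows in the table, 4.51% held a kappaB match, 10.8% a C/EBP match and 7.81% an AP-1 match. The share of all windows with a match to any of the 3 motifs was not computed. The count of 6 of 17 therefore cannot be set against these single-motif shares. A match describes letters in a window, and no binding was measured here. Whether a match bears on the change of its gene was not tested. The sequences are those of RefSeq.

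Several family genes lie side by side, so their changes could be set against those of their neighbours. On chromosome 1 the receptor genes run in the order Il1r2, Il1r1, Il1rl2, Il1rl1, Il18r1 and Il18rap. Of the 5 measured there, Il1r1 alone passed. The other 4 differed by -0.13 to 0.09 (adjusted p = 0.426 to 0.931), among them Il1rl2, the gene of the IL-36 receptor, at -0.13 and Il18rap, the gene of the IL-18 accessory chain, at 0.02. Il18rap was measured well above the array medians, at 6.02 ± 0.26 in PIM1 cells and 5.99 ± 0.16 in EV cells (SD, n = 3 each). Il1rl2 averaged 2.27 in PIM1 cells and 2.40 in EV cells, below the array medians.

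Few neighbours passed at the other loci. Around Il1rn, 0 of 6 neighbouring genes passed, among them the IL-36 family genes Il1f5 and Il1f6 and the related Il1f10. Around Il1a and Il1b, 1 of 6 other genes passed, Sirpa, an inhibitory surface receptor that binds CD47 (difference 1.86, adjusted p = 1.56e-05). Around Il33 it was 1 of 6, Uhrf2, a ubiquitin ligase gene (0.58, adjusted p = 0.00404), and around Il1rap 1 of 6, the claudin gene Cldn1 (-0.48, adjusted p = 0.0139, and 0.0555 without PIM1 replicate 2). In all, 3 of 32 neighbours passed, against 27% of all genes in either direction. Most of the 32 averaged below the array medians in both groups, where a change is hard to detect. Examples are Il1f5 (2.52 in PIM1 cells and 2.60 in EV cells) and Il1f6 (3.20 and 2.96). The 3 that passed averaged above the medians. The low count therefore does not show that the surroundings of the family genes were unchanged. The neighbours were 3 measured genes on each side, a choice made after the values of the family genes were seen.

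**Figure D3:**
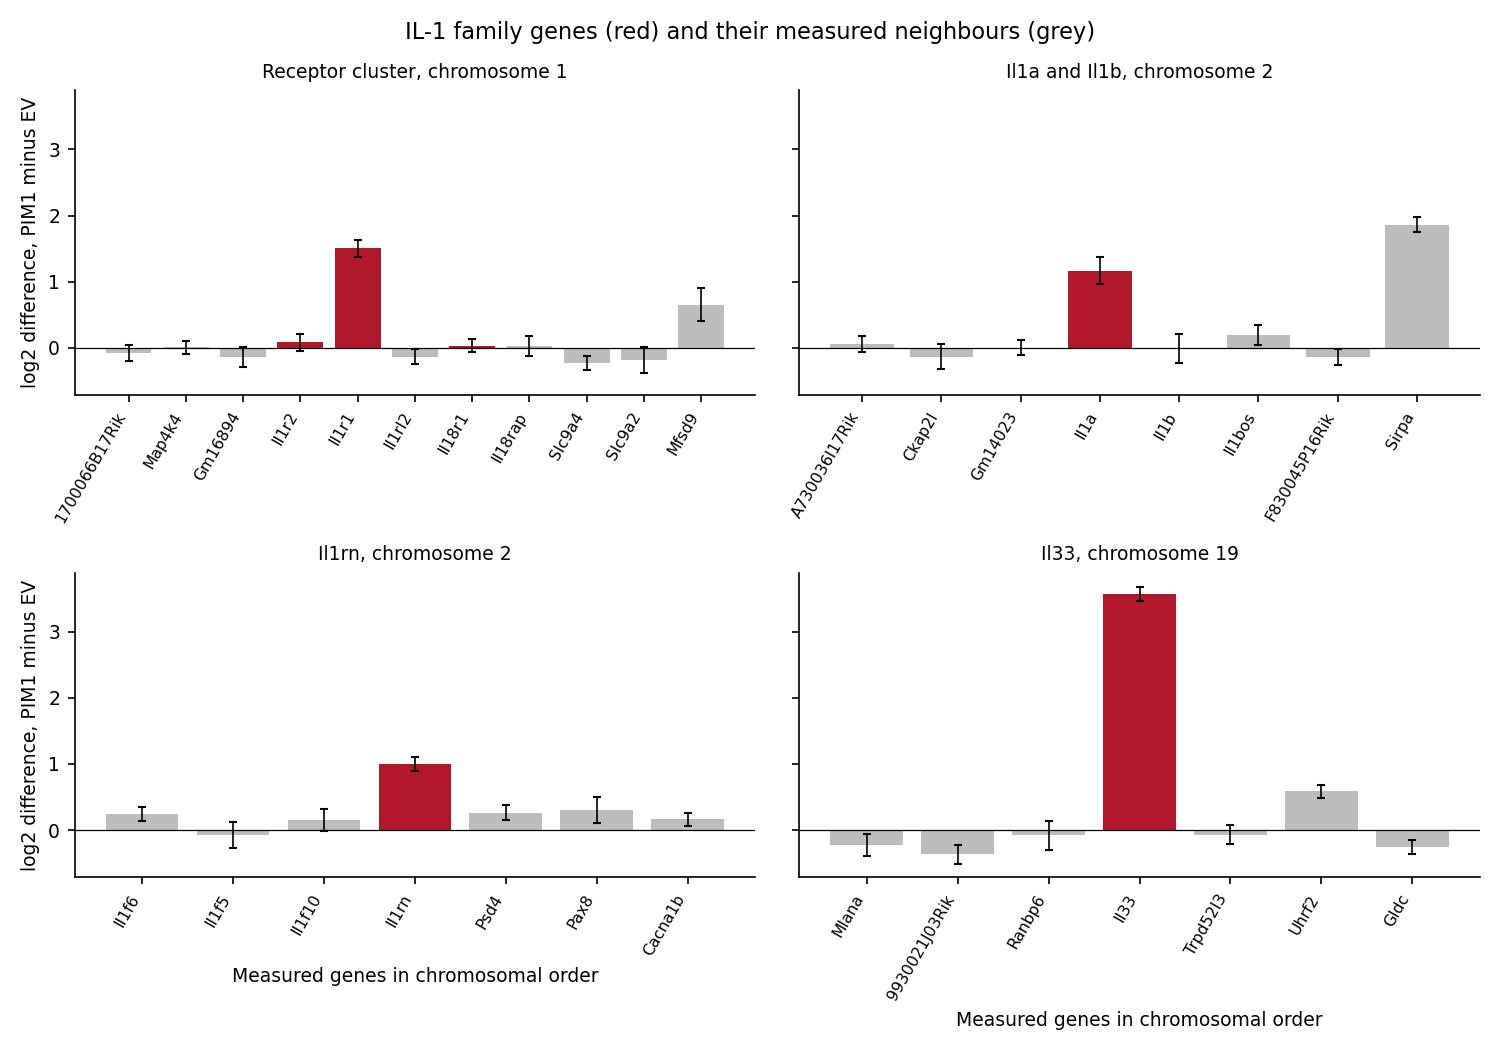
Difference in log2 signal, PIM1 minus EV, with its standard error, for IL-1 family genes (red) and their measured neighbours (grey) in chromosomal order at 4 loci. Il1r1, Il1rn and Il33 stand above the genes drawn beside them, and at the locus of Il1a and Il1b the neighbour Sirpa, at 1.86, stands above Il1a, at 1.17.

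The rest of the pathway was read from lists of 43 further genes, of which 40 were measured (Irak4, Chuk and Capn1 were not analysed here). Here 8 were higher and 2 lower in PIM1 cells, out of 40, beside 16.1% and 10.9% of all genes, and their median difference was 0.03. Among 6 genes for further ligands and the IL-18 binding protein, 1 rose and 0 fell. It was Il18bp, whose product binds and neutralises IL-18, at 4.98 ± 0.14 in PIM1 cells and 4.27 ± 0.11 in EV cells (SD, n = 3 each; difference 0.71, adjusted p = 0.00241). The 4 IL-36 genes, annotated under their older names Il1f5, Il1f6, Il1f8 and Il1f9, did not pass. All 4 averaged below the array medians in both groups, where a change is hard to detect. Il1f6 differed by 0.25 (adjusted p = 0.125) but passed when arrays were quantile normalized (adjusted p = 0.0418), centred on their medians (0.0489) or adjusted by cyclic loess (0.0441). None of 5 further receptor genes passed either. The smallest p there was that of Il1rapl2, a receptor-like gene of the nervous system, at 1.79 ± 0.14 in PIM1 cells and 2.00 ± 0.10 in EV cells (adjusted p = 0.223).

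Of 12 measured genes of the signalling chain, 4 rose and 1 fell, where all genes gave the same 16.1% and 10.9%. Irak3 encodes IRAK-M, a family member that restrains signalling from the receptor complex. It averaged 6.34 ± 0.12 in PIM1 cells and 3.31 ± 0.13 in EV cells (SD, n = 3 each), a difference of 3.03 (adjusted p = 1.27e-06). The EV values of Irak3 lay below the EV array median and are not shown to be above background. Its difference is therefore not an exact measure of its RNA. Ikbkg, the gene of the NEMO subunit of the IkappaB kinase, rose by 0.70 (adjusted p = 0.00420). Smaller rises were those of the adaptor gene Myd88 (0.44, adjusted p = 0.0251) and of Tab1 (0.46, adjusted p = 0.0233), whose product binds the kinase TAK1. Tab3, a related TAK1 partner, fell by 0.50 (adjusted p = 0.0114).

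The calls of Myd88, Tab1 and Tab3 did not hold throughout. Myd88 failed in 8 of 14 alternatives, among them without PIM1 replicate 1, 2 or 3 (adjusted p = 0.0869, 0.0577 and 0.0724) and without EV replicate 2 or 3 (0.0550 and 0.0672). Tab1 failed in 7 of 14, among them without PIM1 replicate 1 or 2 (0.0779 and 0.0920) and without EV replicate 1 or 3 (0.0637 and 0.0640). Tab3 failed without PIM1 replicate 1 or 2 (0.0530 and 0.0511). Irak3 and Ikbkg passed in all 14.

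**Figure D4:**
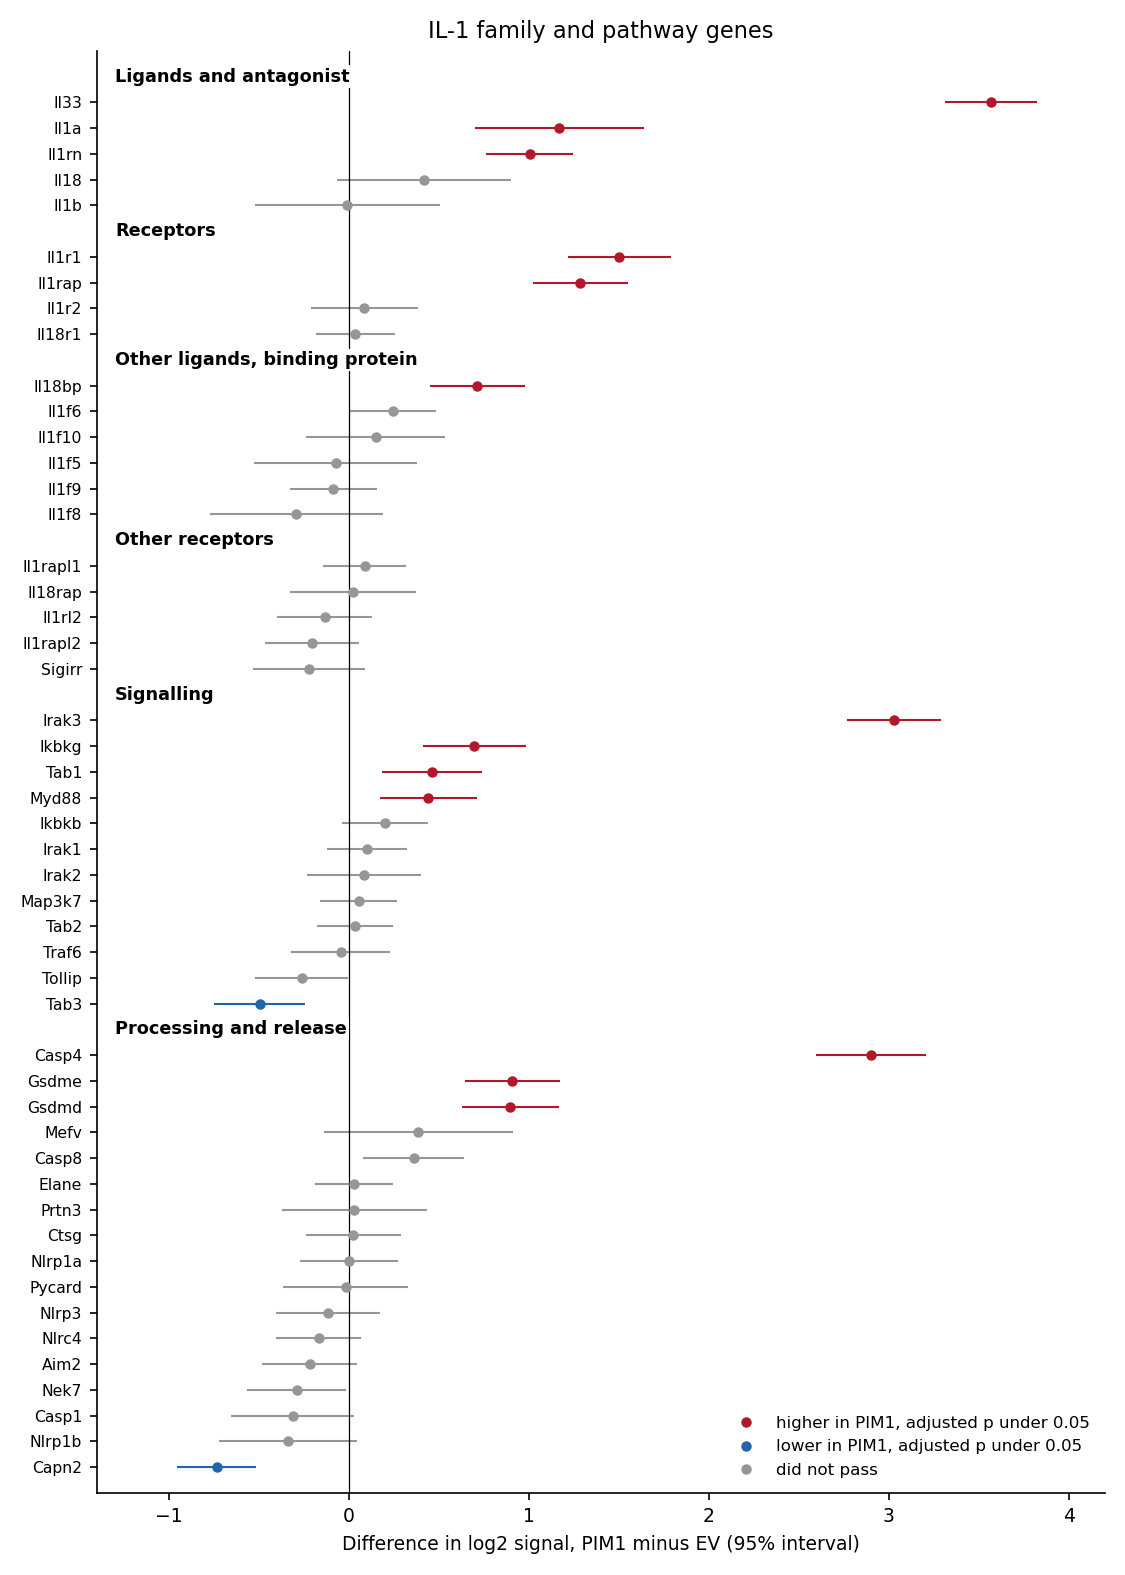
Difference in log2 signal, PIM1 minus EV, with its 95% interval, for the 9 measured IL-1 family genes and 40 further pathway genes grouped by role. Red marks genes called higher in PIM1 cells, blue those called lower, grey those that did not pass. Il33, at 3.57, Irak3, at 3.03, and Casp4, at 2.90, lie apart from the other genes of their groups.

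Of 17 measured genes for the processing and release of IL-1 family cytokines, 3 rose and 1 fell, beside 16.1% higher and 10.9% lower over all genes. Casp4, which encodes the mouse caspase-11 that senses cytosolic lipopolysaccharide, averaged 8.65 ± 0.067 in PIM1 cells and 5.75 ± 0.23 in EV cells (SD, n = 3 each), a difference of 2.90 (adjusted p = 3.06e-06). The gasdermin genes Gsdmd and Gsdme, whose cleaved products form membrane pores, rose by 0.90 (adjusted p = 0.000840) and 0.91 (adjusted p = 0.000668). With the probe sets of a gene averaged, the Gsdmd difference was 0.73 (adjusted p = 0.0150). Gsdme averaged 3.47 in EV cells, just below the EV array median, so its difference is not an exact measure of its RNA. Capn2 encodes a calpain, the class of protease that cuts the IL-1 alpha precursor. It fell by 0.73, with 8.87 ± 0.070 in PIM1 cells and 9.61 ± 0.050 in EV cells (adjusted p = 0.000802). Casp1, the caspase that cuts the precursors of IL-1 beta and IL-18, averaged 4.30 ± 0.23 in PIM1 cells and 4.61 ± 0.18 in EV cells and did not pass (difference -0.31, adjusted p = 0.165). The inflammasome sensor gene Nlrp3 was at a low signal, 2.80 ± 0.13 in PIM1 cells and 2.91 ± 0.18 in EV cells (difference -0.11, adjusted p = 0.542).

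Markers of other cells were read beside these results. Of 14 measured leukocyte markers, 2 were higher and 1 lower in PIM1 cells, beside 16.1% higher and 10.9% lower over all genes. Their median difference was -0.24. Their summed signal on the linear scale was 288 to 338 on PIM1 arrays and 170 to 191 on EV arrays. Without Cd14 the direction of the sum turned, with 91.6 to 103 on PIM1 arrays and 127 to 131 on EV arrays for the other 13, a split chosen after seeing the data. Ptprc, the pan-leukocyte marker, stayed below the array medians at 1.87 ± 0.13 in PIM1 cells and 2.07 ± 0.15 in EV cells. The calls were Cd14, a lipopolysaccharide co-receptor (difference 2.20), S100a8, a calcium-binding protein of myeloid cells (1.16), and Csf1r, the macrophage growth factor receptor (-1.35). S100a8 averaged 2.36 in EV cells, below the EV array median, so its difference carries the limit given for Il1a. The related S100a9, also at low signals, did not pass (-0.24, adjusted p = 0.169). None of 7 endothelial markers passed. Their median signal was 2.81 in PIM1 cells and 3.00 in EV cells, below the array medians, where a change is hard to detect. The 3 with the smallest p there were Cldn5 (-0.23, adjusted p = 0.118), Emcn (-0.34, adjusted p = 0.136) and Pecam1 (-0.16, adjusted p = 0.403). With EV replicate 3 left out, Emcn fell by 0.52 and passed (adjusted p = 0.0128). The summed endothelial signal was 43.7 to 51.7 on PIM1 arrays and 49.2 to 54.4 on EV arrays.

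Most fibroblast markers were higher in PIM1 cells. Of 10 measured, 8 were higher and 1 lower in PIM1 cells, beside 16.1% higher and 10.9% lower over all genes. Their median difference was 1.28, and their summed linear signal was 8236 to 8658 on PIM1 arrays and 2150 to 2264 on EV arrays. Pdgfra had the widest gap between the groups in mean linear signal. Without it, the other 9 summed to 6327 to 6564 on PIM1 arrays and 2089 to 2183 on EV arrays. Dcn, Pdgfra and Fbln1 differed by 5.48, 4.70 and 1.94. Of 7 measured epithelial markers, 0 were higher and 3 lower, beside the same shares over all genes. Their summed signal was 105 on every PIM1 array and 650 to 684 on EV arrays. Krt18 carried most of that gap, since the other 6 summed to 72.3 to 77.3 on PIM1 arrays and 94.2 to 115 on EV arrays. Krt18 differed by -4.24, Cdh1 by -0.94 and Krt19 by -0.73. With the probe sets of a gene averaged, the differences were -2.93 for Krt18 and -0.39 for Cdh1 (adjusted p = 8.11e-07 and 0.0283). Epcam, a defining marker of the labelled epithelial type, was below the array medians in both groups, at 2.35 ± 0.061 in PIM1 cells and 2.50 ± 0.026 in EV cells. Of 3 prostate genes measured, Hoxb13 was higher (0.58), and Tmprss2 and Pbsn, at differences of -0.27 and -0.25, did not pass. The summed prostate signal was 55.5 to 62.5 on PIM1 arrays and 44.4 to 45.9 on EV arrays, and without Hoxb13 10.9 to 11.2 on PIM1 arrays and 12.7 to 14.1 on EV arrays. The part of these cell markers in the IL-1 family differences was not tested. Of the calls named here, Krt19 was lost in 6 of 13 alternatives, namely without PIM1 replicate 1, 2 or 3 (adjusted p = 0.0833, 0.0756 and 0.107), with quantile normalization (0.0601) or median centring (0.0544), and over all probe sets (0.0727).

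The genes most alike in profile were found by the root mean square difference over the 6 arrays, each gene taken relative to its EV mean, among 19380 genes, predicted loci left out. For Il33 they were Nsg1 (0.113), Gch1 (0.142) and Plpp3 (0.145), with differences of 3.59, 3.54 and 3.63 between PIM1 and EV cells. For Il1r1 they were Nrip1 (0.0628), Xylt1 (0.0659) and Ccl9 (0.0803), with differences of 1.46, 1.50 and 1.42. With 2 groups of 3 arrays, this likeness mostly reflects a like difference between the groups.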

How the data were processed

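The authors deposited 1 value per probe set and array, read here as log2 signals from their range, since the sources used here state no log base. The submitters' processing notes name Affymetrix Expression Console without a version, and nothing read here describes its background correction, summarization or normalization. No further scaling was applied. Groups came from the sample titles. Of 41345 probe sets, the platform annotation gave 23521 1 symbol, 1814 several and 16010 none, and only the first kind was used. Where a gene had several probe sets (1082 genes), the brightest on average stood for it. IL-36 symbols were matched through RefSeq synonyms.

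PIM1 and EV were compared by limma 3.58.1 under R 4.3.3, with lmFit and eBayes on a model of group alone, two-sided, and Benjamini-Hochberg adjustment over 22180 genes at a threshold of 0.05. The scripts were tested on simulated data. The number of arrays, 3 per group, limits the precision. The members and gene lists were chosen with earlier results of these data known. The text names all members, every further pathway gene that passed (or the one with the smallest p), the 3 genes with the smallest p per marker list (among them Pdgfra), Ptprc and Epcam, and the 3 genes most alike to Il33 and Il1r1. Il1rl2, Il18rap, Casp1, Nlrp3, S100a9, the IL-36 genes and the chromosomal neighbours were added after their values were seen. The alternatives tried were another variance model (trended and robust), quantile normalization, median centring, cyclic loess, the brighter 11090 genes, averaged probe sets, all probe sets, a replicate block and leaving out each array. The marker sums without 1 gene were added after seeing the data.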

Additional observations from a re-analysis of the deposited data

How the results depend on the processing

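Il33, Il1rn, Il1r1 and Il1rap passed in the same direction in all 14 alternatives and Il1a in all 13 in which it was tested. The count of IL-1 family genes called higher was 4 among the brighter 11090 genes, which left out 4 members including Il1a, 6 without EV replicate 2, where Il18 passed, and 5 otherwise. The count of those lower was 0 throughout. The within-array value of antagonist against agonists ran from 0.14 to 0.60 in 10 alternatives, and that of decoy against signalling receptor from -1.55 to -1.19, with no p that could pass. Over all genes, 1558 were lower in PIM1 cells after median centring, and leaving out 1 array gave 1463 to 2224. Further pathway genes called lower numbered 1 to 3 when 1 array was left out, and 1 without PIM1 replicate 1 or 2, where Tab3 did not pass.

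Genes that did not pass changed sign in some alternatives, and the cause was not tested. Il1b differed by 0.12 after quantile normalization, 0.091 after median centring and 0.13 after cyclic loess, and without 1 array it ran from -0.18 to 0.26. Il1r2 ran from -0.00145 to 0.21 without 1 array, the lowest without EV replicate 2. Il1rl2 differed by 0.016 after quantile normalization and 0.00232 after cyclic loess. Il18rap differed by -0.12 after quantile normalization and -0.071 after cyclic loess, and without 1 array it ran from -0.11 to 0.14. Nlrp3 differed by 0.010 after quantile normalization and 0.012 after cyclic loess.

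Deviations of arrays with the same number from their group means were nearly uncorrelated (r = -0.03 to 0.06). Such correlations cannot exclude that same-numbered arrays shared a culture or an infection, so any pairing stays unknown. With the replicate block 5 family genes were called higher and 0 lower, and over all genes 3218 higher and 2103 lower. Low signals set the limit for Il1a, Il1b, Il1r2 and Il18r1 among the family genes, and in EV cells also for Irak3, Gsdme and S100a8.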
